A study of Mus musculus with 9 samples.

Results

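The receptor genes described here are those of the high-affinity IgE receptor and of the IL-1 receptor family that the array measured in FDCPmix cells, an IL-3-dependent, self-renewing mouse line of multipotent haematopoietic progenitors. The 9 genes were listed by name (Fcer1a, Ms4a2, Il1rl1, Il18r1, Il18rap, Il1r1, Il1r2, Il1rap and Il1rn), and their probes were all those whose transcript accession belongs to one of them. This gave 14 of 41174 probes and 9 of 16531 named genes. Each gene had at least 1 probe bright enough to test, and 13 of the 14 probes were tested.

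The 3 groups of 3 arrays were compared. Cells of each group were transduced with a lentivirus carrying GFP and either no hairpin (empty vector, EV), an shRNA against Gata2 (Gata2 KD) or an shRNA against Pu1, the gene Spi1 that encodes PU.1 (Pu.1 KD), and GFP-positive cells were sorted after 5 days in culture. All arrays therefore measured transduced, sorted cells of one line, and both KD groups are compared with the same EV samples. The labels describe the samples as triplicates and do not say whether the cultures were separate, so p-values measure the spread between these samples. Levels below are log2 intensities with the 75th percentile of each array set to 0, and a change is the difference of 2 such means with the standard error (SE) of the limma fit. A gene was called at an adjusted p (Benjamini-Hochberg, over all 36585 tested probes) under 0.05, by its brightest tested probe. Groups without overlap were common with 3 arrays each. Over all tested probes the share was 18.6% for Gata2 KD against EV, 17.3% for Pu.1 KD against EV and 25.8% between the KD groups.

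The IgE receptor of mast cells and basophils is built of an IgE-binding alpha chain (Fcer1a), a signal-amplifying beta chain (Ms4a2) and a shared gamma chain dimer (Fcer1g). Receptors of the IL-1 family pair a ligand-binding chain with an accessory chain and signal through MyD88 and IRAK kinases to NF-κB. ST2 (Il1rl1) binds IL-33 and marks mast cells, basophils and type 2 lymphocytes, the IL-18 receptor is formed by Il18r1 and Il18rap, IL1R1 is the signalling receptor for IL-1, IL1R2 is a decoy receptor without a signalling domain, and the antagonist IL-1RA (Il1rn) occupies IL1R1 without activating it.

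Gata2 KD divided these genes into opposite directions. Fcer1a and Il1rl1 fell by 7.78-fold and 9.25-fold, and Il1r1, Il1r2 and Il1rn rose by 6.16-fold, 9.77-fold and 29.7-fold, so that 3 of the 9 genes rose and 2 fell, against 4.21% of all 15804 tested named genes that rose and 2.95% that fell. In Pu.1 KD, Il1r2 and Fcer1a fell, by 3.77-fold and 1.62-fold, and 0 of 9 rose, against 2.16% of genes that fell and 1.45% that rose. Comparing the KD groups directly, 3 genes were higher in Gata2 KD (background 6.77%) and 3 were lower (background 5.61%), the latter including Il18r1. The median change of the 9 genes was -0.48 in Gata2 KD and -0.24 in Pu.1 KD, beside -0.09 and -0.04 over all tested probes.

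The targeted genes followed the labels. Gata2 stood at 4.80 ± 0.27 in EV, 3.19 ± 0.36 in Gata2 KD and 4.65 ± 0.19 in Pu.1 KD (SD, n = 3 each), a change of -1.61 in Gata2 KD (SE 0.23, adjusted p 0.00414) and -0.15 in Pu.1 KD (SE 0.23, adjusted p 0.964). Spi1 was -1.86 ± 0.21, -0.47 ± 0.17 and -3.59 ± 0.06 in the same order, so it fell by 1.73 in Pu.1 KD (adjusted p 0.00178, by 1.00 with normexp background correction) and rose by 1.39 in Gata2 KD (adjusted p 0.0012). Between 80.4% and 89.6% of spots per array were well above background, EV replicate 3 correlated least with the other arrays (mean r 0.960, all others at least 0.971), and each of the 3 slides held 1 array of every group.

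Sequence is shown for the promoters of Fcer1a, Ms4a2 and Il1rl1, genes of the mast cell and basophil receptors, and of Il1r2, which moved the other way, because GATA2 binds GATA motifs. The windows are RefSeq sequence of the mouse build GRCm38.p6, from 250 bases before to 50 bases after a transcript start, 5′ to 3′ on the strand of the gene. They lie at chr1:173227180-173227479 (minus strand) for Fcer1a, chr19:11623670-11623969 (minus) for Ms4a2, chr1:40429320-40429619 and chr1:40439379-40439678 (plus) for 2 start sites of Il1rl1, and chr1:40085843-40086142 (plus) for Il1r2. Capitals mark a match to AGATAA, to AGATAG, to TGATAA or to TGATAG on either strand.
Fcer1a: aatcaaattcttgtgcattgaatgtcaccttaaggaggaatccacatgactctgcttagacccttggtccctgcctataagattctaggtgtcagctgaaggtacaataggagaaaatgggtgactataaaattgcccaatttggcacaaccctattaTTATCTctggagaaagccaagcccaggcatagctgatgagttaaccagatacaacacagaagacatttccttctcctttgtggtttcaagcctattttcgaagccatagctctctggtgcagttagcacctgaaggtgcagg
Ms4a2: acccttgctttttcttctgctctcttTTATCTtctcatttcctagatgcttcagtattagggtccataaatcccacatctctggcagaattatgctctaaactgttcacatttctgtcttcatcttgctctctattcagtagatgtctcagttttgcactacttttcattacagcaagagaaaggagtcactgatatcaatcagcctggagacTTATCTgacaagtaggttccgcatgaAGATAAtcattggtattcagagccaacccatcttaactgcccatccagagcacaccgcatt
Il1rl1, upstream start: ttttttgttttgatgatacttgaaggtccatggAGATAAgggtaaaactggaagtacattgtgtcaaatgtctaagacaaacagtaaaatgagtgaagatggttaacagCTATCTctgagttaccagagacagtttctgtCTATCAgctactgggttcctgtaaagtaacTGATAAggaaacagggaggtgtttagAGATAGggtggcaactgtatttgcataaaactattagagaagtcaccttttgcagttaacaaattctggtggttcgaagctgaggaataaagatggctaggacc
Il1rl1, downstream start: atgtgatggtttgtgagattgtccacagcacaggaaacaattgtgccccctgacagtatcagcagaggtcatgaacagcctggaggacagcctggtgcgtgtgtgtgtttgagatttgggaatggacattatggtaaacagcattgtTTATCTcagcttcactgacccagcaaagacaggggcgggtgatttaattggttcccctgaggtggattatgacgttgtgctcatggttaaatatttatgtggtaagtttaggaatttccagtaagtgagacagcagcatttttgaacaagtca
Il1r2: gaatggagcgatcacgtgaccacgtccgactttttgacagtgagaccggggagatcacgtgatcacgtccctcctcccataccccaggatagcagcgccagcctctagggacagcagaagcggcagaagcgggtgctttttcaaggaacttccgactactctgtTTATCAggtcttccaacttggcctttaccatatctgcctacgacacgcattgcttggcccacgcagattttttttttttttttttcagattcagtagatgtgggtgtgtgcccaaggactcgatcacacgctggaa

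All 9 genes had a promoter window, 15 in total, and 6 windows of 5 genes held such a match, none of them overlapping another. The upstream Il1rl1 window had 5, the Ms4a2 window 3, and the windows of Fcer1a, Il18rap and Il1r2 and the downstream one of Il1rl1 had 1 each. Il18r1, Il1r1, Il1rap and Il1rn had no match in their windows. Any of the 4 motifs was present in 29.8% of all 32851 promoter windows of this length (AGATAA in 11.2%, AGATAG in 8.95%, TGATAA in 9.05%, TGATAG in 7.29%). The purine-rich motif GGAAGTG, of the kind that PU.1 binds, was in 0 of the 15 windows and in 11.0% of all windows. These matches describe letters in a window, and their part in the changes was not tested.

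Fcer1a encodes the chain that holds IgE. Its level was 5.99, 6.21 and 5.96 on the EV arrays, 3.01, 3.07 and 3.20 in Gata2 KD and 5.36, 5.44 and 5.26 in Pu.1 KD. No 2 groups overlapped, with EV highest, Pu.1 KD below it and Gata2 KD far lower. The fall in Gata2 KD was 2.96 on the log2 scale (SE 0.13, adjusted p 1.29e-05, with slide as a block 0.000121), and within the 3 slides the change lay between -3.20 and -2.79. It ranked 4 from the lowest among 15804 named genes. In Pu.1 KD it fell by 0.70 (SE 0.13, adjusted p 0.0329, with slide as a block 0.0261), between -0.77 and -0.60 within slides. That call did not hold with any of the 9 arrays left out (adjusted p from 0.0528 to 0.137), nor when arrays were scaled to their median (0.324), when only the 2 groups were fitted (0.137) or with the replicate block (0.139), while the size stayed between -0.75 and -0.62. Gata2 KD was 4.79-fold lower than Pu.1 KD (adjusted p 1.93e-05).

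Ms4a2, the beta chain, read -1.34, -1.29 and -1.18 in EV, -2.41, -1.75 and -2.46 in Gata2 KD and -1.59, -2.42 and -2.07 in Pu.1 KD. Every KD array was below every EV array, and the KD groups overlapped each other. Over all tested probes, 18.6% did not overlap between Gata2 KD and EV and 17.3% between Pu.1 KD and EV. The change was -0.94 in Gata2 KD (SE 0.26, adjusted p 0.0932) and -0.76 in Pu.1 KD (SE 0.26, adjusted p 0.226), neither called. With slide as a block the adjusted p was 0.0193 and 0.0532, and the change within slides ran from -1.12 to -0.58 and from -1.13 to -0.42. The KD groups differed by -0.18 (95% confidence interval -0.77 to 0.41, adjusted p 0.976). Fcer1g, the gamma chain, which also serves Fc receptors of myeloid cells, was at 4.94 ± 0.13 in EV, 5.00 ± 0.14 in Gata2 KD and 4.88 ± 0.15 in Pu.1 KD (SD, n = 3), with changes of 0.06 (adjusted p 0.973) and -0.07 (adjusted p 0.993).

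Il1rl1 had 3 probes. The brightest (A_52_P484194) read 3.82, 3.89 and 4.01 in EV, 0.87, 0.56 and 0.67 in Gata2 KD and 3.94, 4.17 and 4.26 in Pu.1 KD. All Gata2 KD arrays were far below the rest, and EV and Pu.1 KD overlapped. The level fell by 3.21 in Gata2 KD (SE 0.15, adjusted p 1.41e-05, with slide as a block 0.000128) (change between -3.45 and -3.02 within slides), and ranked 3 from the lowest. In Pu.1 KD the change was 0.21 (95% confidence interval -0.12 to 0.55, adjusted p 0.735), and Gata2 KD was 10.7-fold below Pu.1 KD (adjusted p 4.72e-06).

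The Il1rl1 probe A_51_P339793, assigned to another transcript of the gene, read 0.11, 0.08 and -0.12 in EV, -2.65, -2.78 and -2.85 in Gata2 KD and 0.45, 0.81 and 0.81 in Pu.1 KD. It fell by 2.78 in Gata2 KD (SE 0.15, adjusted p 3.07e-05, by 2.14 with normexp correction). Its 3 Pu.1 KD arrays lay above the EV arrays, by 0.67 (SE 0.15), with an adjusted p of 0.0663 that missed the threshold and 0.0273 with slide as a block. The dim probe A_52_P19955 read -3.68, -3.69 and -2.80 in EV, -5.10, -4.67 and -3.90 in Gata2 KD and -3.48, -3.66 and -3.35 in Pu.1 KD, with a change of -1.17 in Gata2 KD (SE 0.34, adjusted p 0.116) and -0.11 in Pu.1 KD (adjusted p 1.00). Its Gata2 KD arrays were below all others, but the EV and Gata2 KD arrays spread by about as much as the group means differed. The change was -0.37 with normexp correction and -0.49 in the deposited log2 values. It was called in 3 of 21 alternatives, with an adjusted p of 0.0486 without Gata2 KD replicate 3, 0.0265 after quantile normalization and 0.0291 in the deposited values.

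**Figure D1:**
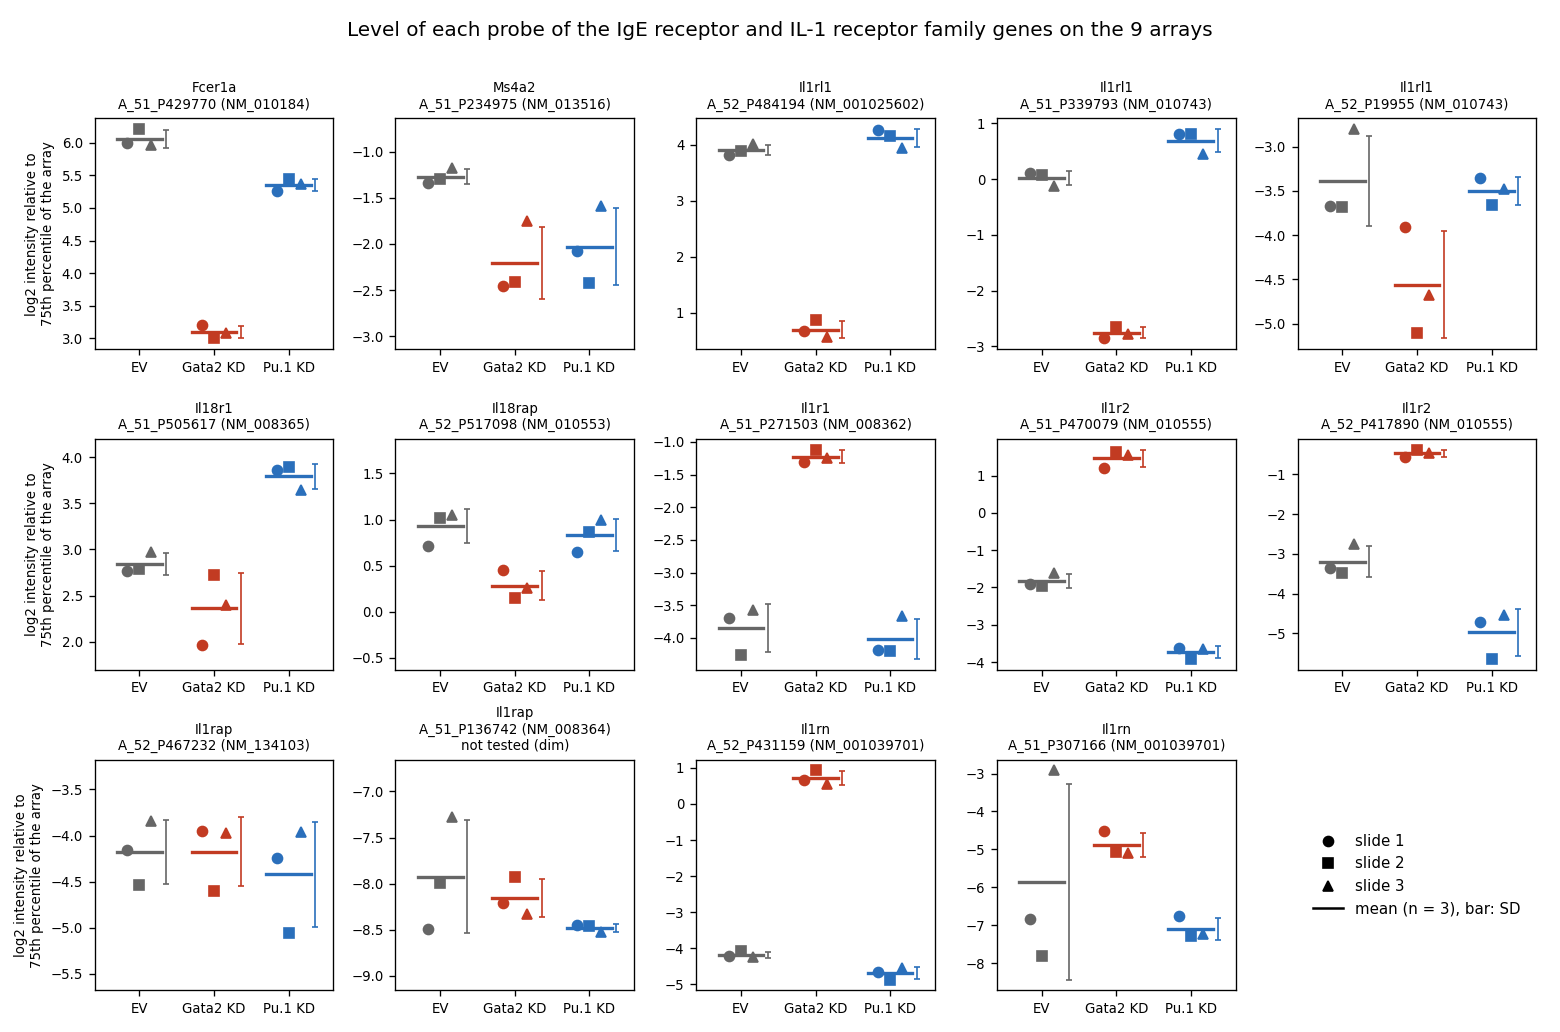
Level of each of the 14 probes (log2 intensity, with the 75th percentile of its array at 0) in EV, Gata2 KD and Pu.1 KD, 1 point per array, the symbol giving the slide, with the mean as a line and the SD as a bar (n = 3). Fcer1a and the brighter Il1rl1 probes are low on all 3 Gata2 KD arrays, whereas Il1r1, Il1r2 and the brighter Il1rn probe are high there, and the dim Il1rn probe is set apart by EV replicate 3 at -2.92. The vertical scales differ between panels.

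Il18r1, the IL-18-binding chain, separated the KD groups. It read 2.76, 2.79 and 2.98 in EV, 2.73, 2.40 and 1.96 in Gata2 KD and 3.64, 3.89 and 3.86 in Pu.1 KD. Pu.1 KD was above EV on every array and Gata2 KD below it, the highest Gata2 KD array close to the lowest EV array. Gata2 KD was 2.70-fold lower than Pu.1 KD, a difference of -1.44 (SE 0.20, adjusted p 0.00243) that lay between -1.90 and -1.16 within slides (with slide as a block, adjusted p 0.00362). Against EV, the change of 0.95 in Pu.1 KD had an adjusted p of 0.0506 (SE 0.20, with slide as a block 0.0392, and from 0.0040 to 0.182 over 21 alternatives), and that of -0.48 in Gata2 KD had 0.320 (SE 0.20). By the test the KD groups thus differed from each other, and neither passed it against EV.

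Il18rap, the accessory chain of the same receptor, read 0.72, 1.01 and 1.05 in EV, 0.15, 0.26 and 0.45 in Gata2 KD and 0.99, 0.86 and 0.65 in Pu.1 KD. The Gata2 KD arrays were below all others, while Pu.1 KD overlapped EV. The change was -0.64 in Gata2 KD (SE 0.16, adjusted p 0.0658, with slide as a block 0.0512) and -0.09 in Pu.1 KD (95% confidence interval -0.46 to 0.28, adjusted p 0.980). The KD groups differed by -0.55 (SE 0.16, adjusted p 0.0777), so Il18rap was not called in any of the 3 comparisons of the main fit. Its fall in Gata2 KD was called in 4 of 21 alternatives (lowest adjusted p 0.0232). The difference between the KD groups was called in 3 (lowest 0.0151). For both chains, every Gata2 KD array was below every Pu.1 KD array, while 25.8% of all tested probes did not overlap between these groups.

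Il1r1, the signalling receptor for IL-1, was low in EV, at -3.70, -4.26 and -3.58, and in Pu.1 KD, at -3.66, -4.20 and -4.19, and higher in Gata2 KD, at -1.12, -1.25 and -1.31. Gata2 KD did not overlap the other groups, which overlapped each other. It rose by 2.62 in Gata2 KD (SE 0.22, adjusted p 0.000287, with slide as a block 0.000707), between 2.33 and 3.15 within slides. With another background correction (normexp) the rise was 1.63. The change in Pu.1 KD was -0.17 (95% confidence interval -0.69 to 0.34, adjusted p 0.946).

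Il1r2, the decoy receptor, was called in opposite directions in the KD groups, as was no other of the 9 genes. Its brighter probe (A_51_P470079) read -1.90, -1.95 and -1.61 in EV, 1.63, 1.57 and 1.21 in Gata2 KD and -3.66, -3.92 and -3.62 in Pu.1 KD. The 3 groups were separate on every array, in the order Gata2 KD, EV, Pu.1 KD. It rose by 3.29 in Gata2 KD (SE 0.17, adjusted p 2.76e-05, with slide as a block 0.000153) and fell by 1.92 in Pu.1 KD (SE 0.17, adjusted p 0.0018, with slide as a block 0.00408), and the KD groups were 36.9-fold apart (5.20 on the log2 scale, adjusted p 1.36e-06, 3.92 with normexp correction and 4.35 in the deposited log2 values). Within slides the change was 3.11 to 3.58 and -2.05 to -1.72. With normexp correction the fall in Pu.1 KD was 1.08, still called.

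The other Il1r2 probe (A_52_P417890) read -3.36, -3.48 and -2.75 in EV, -0.38, -0.47 and -0.56 in Gata2 KD and -4.55, -5.65 and -4.71 in Pu.1 KD. It showed the same order of the groups. It rose by 2.73 in Gata2 KD (SE 0.31, adjusted p 0.00127, by 1.88 with normexp correction) and fell by 1.77 in Pu.1 KD (SE 0.31, adjusted p 0.0229). The Pu.1 KD call of this dimmer probe was lost in 10 of 21 alternatives, 7 of them with 1 array left out (adjusted p up to 0.0677), and the fall was 0.49 with normexp correction (adjusted p 0.188) and 0.76 in the deposited log2 values.

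Il1rap, the accessory chain shared by ST2 and IL1R1, showed no difference beyond its spread. Its tested probe read -4.15, -4.54 and -3.85 in EV, -4.61, -3.97 and -3.95 in Gata2 KD and -3.96, -5.05 and -4.24 in Pu.1 KD, and all groups overlapped. The change was 0.00 in Gata2 KD (95% confidence interval -0.74 to 0.75, adjusted p 0.999) and -0.24 in Pu.1 KD (-0.98 to 0.51, adjusted p 0.954), intervals wide enough to hold a moderate change. The other probe (A_51_P136742, another transcript) was well above background on 0 of 9 arrays and was not tested.

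Il1rn, which encodes the IL-1 receptor antagonist, rose more than any other of the 9 genes in Gata2 KD. Its brighter probe (A_52_P431159) read -4.21, -4.08 and -4.25 in EV, 0.93, 0.55 and 0.66 in Gata2 KD and -4.53, -4.87 and -4.66 in Pu.1 KD. All 3 groups were separate, Gata2 KD by a wide margin. It rose by 4.89 in Gata2 KD (SE 0.16, adjusted p 3.5e-06, with slide as a block 6.3e-05), between 4.80 and 5.01 within slides, the rank 16 from the highest of 15804 named genes. With normexp correction the rise was 3.23. In Pu.1 KD the change of -0.51 was not called (SE 0.16, adjusted p 0.171). Each Pu.1 KD array lay below each EV array, and 17.3% of all tested probes did not overlap between these groups. The KD groups were 42.4-fold apart (5.40 on the log2 scale, adjusted p 7.22e-07, and 3.32 with normexp correction).

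The dim Il1rn probe (A_51_P307166) did not pass the test in any of the 3 comparisons. It read -6.84, -7.80 and -2.92 in EV, -5.06, -5.10 and -4.53 in Gata2 KD and -7.24, -7.29 and -6.76 in Pu.1 KD, and was well above background on 1, 3 and 0 arrays. EV replicate 3, the array least like the others, stood far above its group. The change in Gata2 KD was 0.96 (SE 1.06, adjusted p 0.878), and without EV replicate 3 it was 2.43 (adjusted p 0.00611). With the Pu.1 KD arrays raised to the dimmest signals that were well above background, the Gata2 KD mean on the processed signals was 2.53-fold higher. That figure holds no sampling error, and the difference was not called (95% confidence interval -0.22 to 4.63). The measured means differed by 2.20 (adjusted p 0.338), by 0.34 with normexp correction and by 0.48 in the deposited log2 values. The adjusted p of that difference was 0.00169 with only these groups in the fit and 0.00279 without EV replicate 3.

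**Figure D2:**
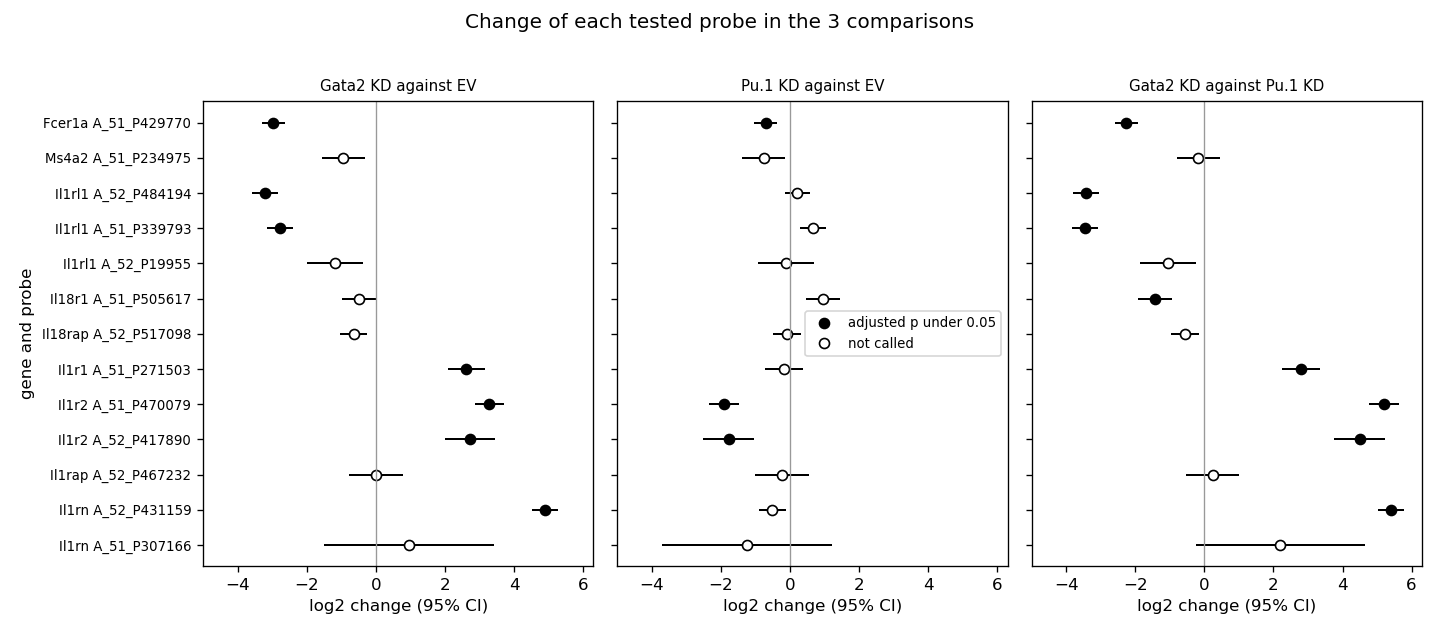
log2 change (point) with its 95% confidence interval (line) for the 13 tested probes for each KD group set against EV (left and middle) and for the KD groups set against each other (right), filled where the adjusted p is under 0.05. In Gata2 KD, Fcer1a and the brighter Il1rl1 probes lie near -3 and Il1r1, Il1r2 and the brighter Il1rn probe between 2.6 and 4.9, while Il1r2 is on opposite sides of 0 in the KD groups.

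Of the 9 genes, 5 lie in one cluster. On mouse chromosome 1 the RefSeq order of protein-coding genes runs Map4k4, Il1r2, Il1r1, Il1rl2, Il1rl1, Il18r1, Il18rap, Slc9a4. Along this cluster in Gata2 KD the 2 genes next to Map4k4 rose, by 3.29 and 2.62, and Il1rl1 fell by 3.21, with only Il1rl2 between Il1r1 and Il1rl1. The single Il1rl2 probe was too dim to test. Il18r1 and Il18rap, beyond Il1rl1, had changes of -0.48 and -0.64 that were not called. The tested genes outside the cluster were not called in any comparison. Their changes in Gata2 KD were 0.09 for Map4k4 (adjusted p 0.970), -0.13 for Slc9a4 (SE 0.46, adjusted p 0.984) and 0.22 for Mfsd9, 2 genes further on (adjusted p 0.927). Of the other flanking genes shown, Rfx8 and Gm3646 had no probe and Slc9a2 was not tested.

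**Figure D3:**
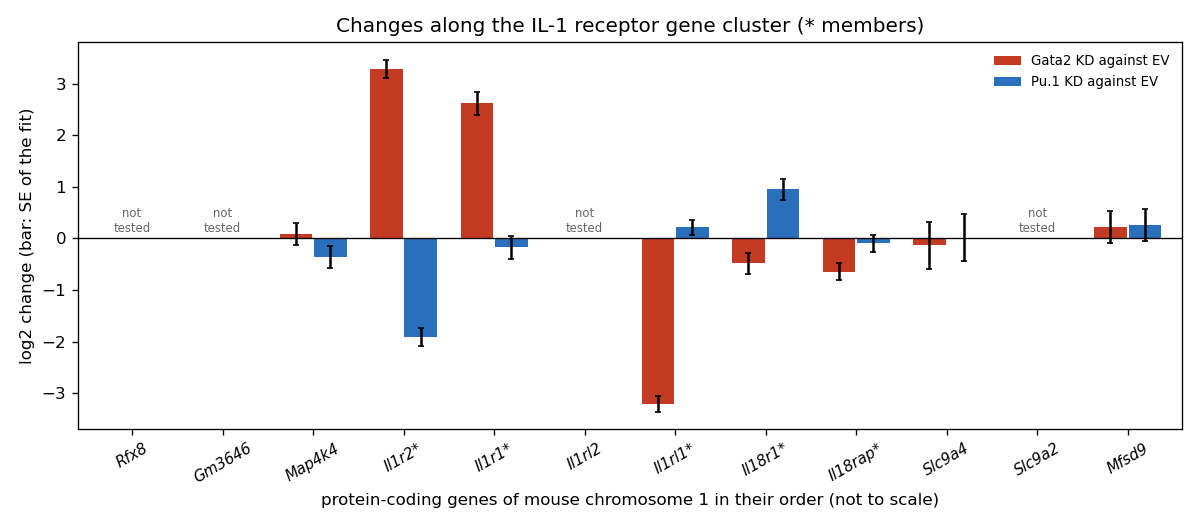
log2 change (bar) with the SE of the fit (line) in Gata2 KD and Pu.1 KD against EV for the protein-coding genes of the IL-1 receptor cluster and the nearest genes on either side, in their order on chromosome 1 and not to scale. Il1r2 and Il1r1 rise by 3.29 and 2.62 in Gata2 KD while Il1rl1 falls by 3.21, and the tested flanking genes stay between -0.36 and 0.27.

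The genes that carry the signal of the IgE receptor were examined as a list of 20, of which 19 were tested. In Gata2 KD 4 rose and 1 fell, with a median change of 0.15, beside 4.21% and 2.95% of all tested named genes. The guanine nucleotide exchange factor Rasgrp4 rose by 1.49 (adjusted p 0.000446), the kinase Syk by 1.33 (adjusted p 0.0102), the adaptor Grap2 by 1.05 (adjusted p 0.0121) and the kinase Prkcd by 0.93 (adjusted p 0.0132). Lat, the membrane scaffold on which the receptor builds its signalling complex, fell by 1.95 (adjusted p 0.000259), from at least 2.08 on the EV arrays to at most 0.55.

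In Pu.1 KD 0 of the 19 rose and 2 fell, with a median of -0.07, beside 1.45% and 2.16% of all tested named genes. Lyn, the kinase that phosphorylates the receptor chains, fell by 1.17 (adjusted p 0.0276) and Rasgrp4 fell by 0.89 (adjusted p 0.0152). Between the KD groups 6 were higher in Gata2 KD and 1, Lat, was lower (by 2.31, adjusted p 5.18e-05). The shares of all tested named genes were 6.77% higher and 5.61% lower. Over the 21 alternatives the number that rose in Gata2 KD ran from 1, without Gata2 KD replicate 2, to 6, and the number that fell from 1 to 4 (4 up and 4 down with slide as a block, 2 down without EV replicate 3). Between the KD groups, fewer than 6 were higher in 15 of them, down to 3 with scaling to the median, and 1 to 3 were lower (2 on leaving out EV replicate 2, EV replicate 3 or Gata2 KD replicate 3). The number that fell in Pu.1 KD ran from 0 to 3, being 0 without EV replicate 2 or with any 1 of the 3 Pu.1 KD arrays left out, and 1 when Gata2 KD replicate 2 or 3 or EV replicate 3 was left out.

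Of 10 ligands and binding proteins of the IL-1 family, 6 had a probe and 5 were tested. Over all tested named genes, 4.21% rose and 2.95% fell in Gata2 KD, and 1.45% and 2.16% did so in Pu.1 KD. Il1b, which encodes IL-1β, rose in Gata2 KD by 1.60 (SE 0.21, adjusted p 0.00323), with -2.93, -2.49 and -2.45 in EV against -0.68, -0.96 and -1.41. Il18 rose by 1.00 (SE 0.23, adjusted p 0.0429), and in 10 of 21 alternatives only 1 of these genes was called. None of the 5 fell, and 0 were called in Pu.1 KD, in which Il1b had a change of 0.60 (adjusted p 0.262) and Il18 of -0.06 (adjusted p 1.00). No array showed Il33 well above background. The inhibitory receptor Sigirr and Il1rapl2, the 2 tested of 4 further members of the receptor family, were not called.

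Of 21 genes listed for IL-1β processing and IL-1 receptor signalling, 20 were tested. The shares of all tested named genes that rose and fell were 4.21% and 2.95% in Gata2 KD and 1.45% and 2.16% in Pu.1 KD. In Gata2 KD 3 rose and 0 fell (median 0.06), with 2 risen in 12 of the 21 alternatives and 0 or 1 fallen (1 without EV replicate 1). Nfkbia, the NF-κB inhibitor that is itself an NF-κB target, rose by 1.82 (adjusted p 0.000375), the kinase Irak2 by 1.15 (adjusted p 0.00277) and the IL-1β-processing protease Casp1 by 0.64 (adjusted p 0.0342). In Pu.1 KD 1 fell, Tab3, by 1.03 (adjusted p 0.0244), and 0 rose (median -0.13), the number that fell running from 0 to 3 over the alternatives. The adaptor Myd88 and the kinases Irak1 and Irak4 were among the genes not called against EV.

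**Figure D4:**
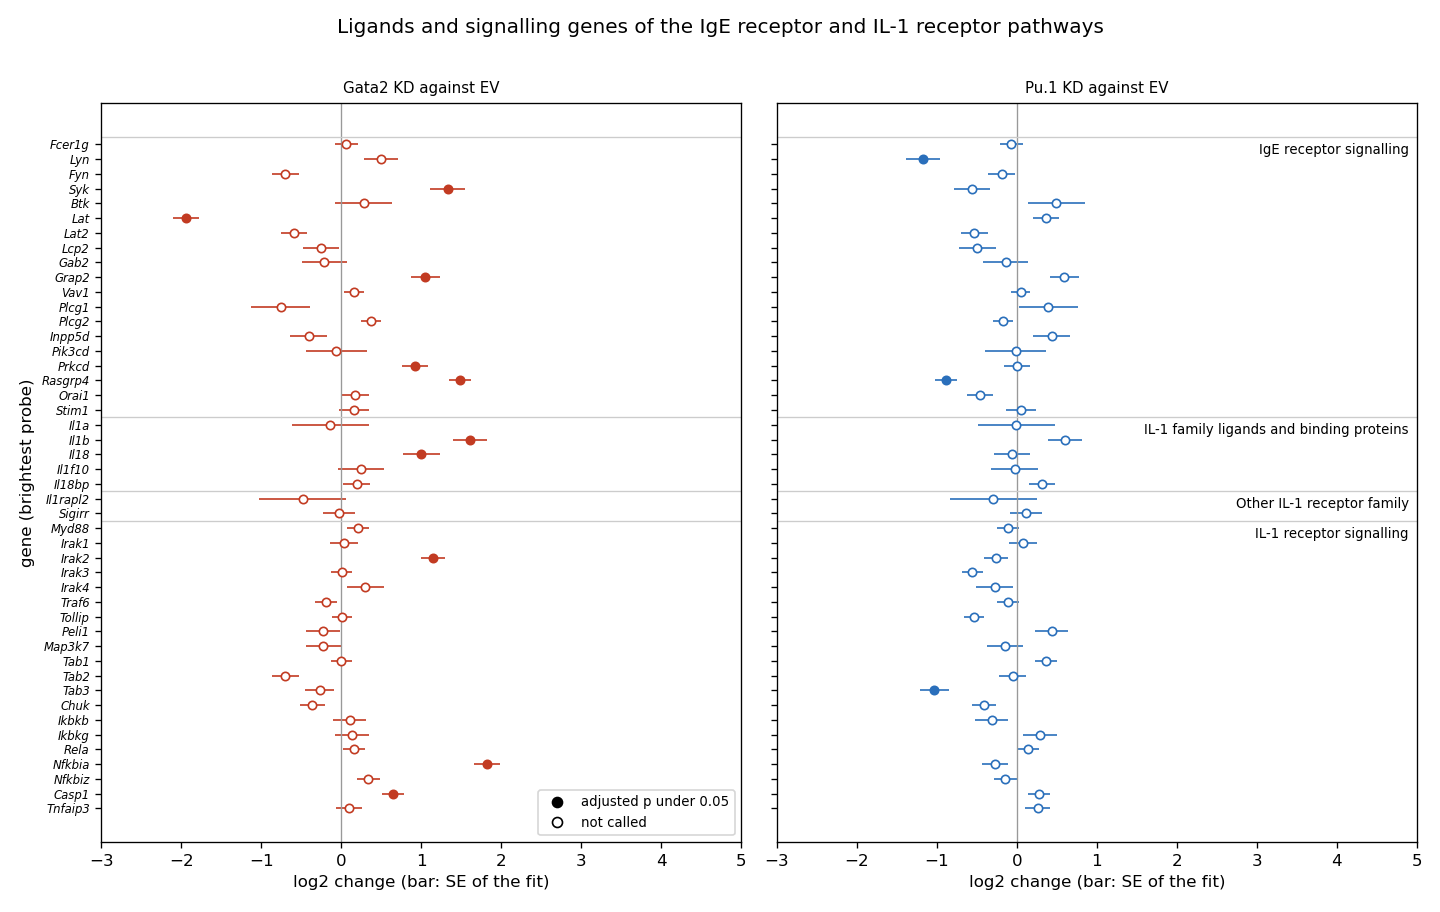
log2 change (point) with the SE of the fit (line) in Gata2 KD (left) and Pu.1 KD (right) against EV for the tested genes of the IgE receptor and IL-1 receptor pathways, each by its brightest probe and filled where the adjusted p is under 0.05. Most genes lie near 0, with Nfkbia (1.82), Il1b (1.60) and Rasgrp4 (1.49) highest and Lat (-1.95) lowest in Gata2 KD.

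Markers of several blood cell types moved in the same arrays, and in bulk RNA fewer cells of a type cannot be told apart from less RNA per cell. Beside the counts of these lists, 4.21% of all tested named genes rose and 2.95% fell in Gata2 KD. In Pu.1 KD the shares were 1.45% and 2.16%. Of 7 tested mast cell markers 3 fell in Gata2 KD (Cpa3 -2.49, Cma1 -1.23 and Hdc -0.98) and 0 rose. In 8 of 21 alternatives only 2 were called lower, and 0 or 1 was called higher over all of them. Among the markers not called, Mitf had a positive change of 0.83 (adjusted p 0.0874). Mcpt4, Mrgprb2 and Tpsb2 had changes of -0.57, -0.46 and -0.20. Set directly against Pu.1 KD, Gata2 KD had 3 of the markers called lower and 1 called higher, Mitf (1.39, adjusted p 0.00505). The summed level of the list (log2 of its summed signals) was 5.25 to 5.56 in EV and 3.55 to 3.78 in Gata2 KD. In Pu.1 KD it was 4.70 to 4.90, also below EV. The sum mostly follows Cpa3, the brightest of these markers in EV (mean 4.90, next Hdc at 3.54). The change of Cpa3 in Pu.1 KD was -0.72 and was not called (adjusted p 0.0775). Of 5 basophil markers, which include the targeted Gata2, 4 fell in Gata2 KD (Cd200r3 -2.01, Prss34 -1.74, Gata2 -1.61 and Mcpt8 -1.51), with sums of 5.21 to 5.55, 3.60 to 4.05 and 5.01 to 5.28. The fall of Gata2 is the knockdown itself. It was also the brightest of these markers in EV (mean 4.80, next Mcpt8 at 3.15), so the fall of the sum largely holds the knockdown. In Pu.1 KD 1 mast cell marker rose (Cma1, 1.49) and 1 fell (Hdc, -1.02), and 2 basophil markers fell, and each of these counts went down to 0 under some alternatives. Fcer1a thus fell in Gata2 KD along with markers of both lists, the targeted Gata2 set aside, and their part in its change was not tested.

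The rise of Il1r1, Il1r2 and Il1rn came with a rise of 8 of 8 neutrophil and 6 of 6 tested monocyte and macrophage markers in Gata2 KD, their summed levels going from at most 7.04 and 5.20 on the EV arrays to at least 9.80 and 7.76. In Pu.1 KD 7 of 8 and 2 of 6 fell, with sums of 4.35 to 4.75 and 3.79 to 3.95, and over the alternatives 4 to 8 and 1 or 2 fell (1 of 6 without Pu.1 KD replicate 1 or 2). Of 5 eosinophil markers 2 rose in Gata2 KD and 3 fell in Pu.1 KD (sums 1.71 to 2.22 in EV, 3.39 to 3.77 and 0.39 to 0.57). The macrophage marker Mrc1 was well above background in Gata2 KD only. Of 7 tested T, NK and innate lymphoid markers 1 (Thy1) rose in Gata2 KD and fell in Pu.1 KD, and of 4 B cell markers 1 (Cd79b) fell in Pu.1 KD. The 6 progenitor markers were well above background on all 9 arrays, with Kit higher in both KD groups (0.75 and 1.41) and Cd34 higher in Gata2 KD (2.17) and lower in Pu.1 KD (-0.92). In 9 of 21 alternatives 1 progenitor marker was called higher in Gata2 KD, among them those without EV replicate 1 or 2, Pu.1 KD replicate 3 or any Gata2 KD array. In 10 of 21, 0 were called lower in Pu.1 KD, among them those leaving out any array but EV replicate 1 and Gata2 KD replicate 1. For all these counts, the shares of all tested named genes were 4.21% risen and 2.95% fallen in Gata2 KD. They were 1.45% and 2.16% in Pu.1 KD. The part of these lists in the changes of the receptor genes was not tested.

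For each gene, the named genes with the most similar pattern over the 9 arrays were found among 14452 genes well above background on all of them, as a description only, since the points fall into 3 groups. Fcer1a was followed most closely by Fam20a (Pearson r 0.994), Gpd2 (0.992) and Nxnl2 (0.992), and Il1rl1 by Prxl2a (0.998), Tnfrsf9 (0.997) and Nt5c3 (0.995). Il1r2 was matched by Ifi27l2a (r 1.00), Igsf6 (0.997) and S100a4 (0.997), with changes of 3.42, 3.84 and 2.04 in Gata2 KD and -1.94, -2.11 and -0.97 in Pu.1 KD. For Il1rn these were Irf8, Sirpa and Thbs1 (each 0.998) and for Il1r1 Slc11a1 (0.996), 1600014C10Rik and Batf3 (both 0.995). The values were 0.987, 0.983 and 0.983 for Il18r1 (Ell, Tmem14a and Slc35e2), 0.984, 0.976 and 0.972 for Il18rap (Ccdc91, Aqp9 and Cipc), 0.980, 0.979 and 0.968 for Il1rap (Slc27a2, Creg2 and Arhgap44), and 0.924, 0.911 and 0.903 for Ms4a2 (Itgal, Prr36 and Gpr174).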

How the data were processed

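Total RNA was labelled with Cy3 and hybridised to one-colour Agilent mouse arrays (design build mm8). The authors deposited Feature Extraction 10.1.1.1 output with processed signal intensity per spot and a table of log2 values that track the log2 median signal (r at least 0.997 on each array). Here spots flagged as outliers were left out, spots of a probe averaged, and log2 processed intensity was centred on the 75th percentile of the array (438.7 to 587.4 intensity units). Probes well above background on at least 3 of 9 arrays were tested with limma 3.58.1 in R 4.3.3, by group means over all 9 arrays, with Benjamini-Hochberg adjustment. Probes were named by matching accessions to RefSeq genes (GRCm38.p6, 23366 probes). The scripts were tested on simulated data.

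All 9 genes with every probe were named. From the pathway lists the called genes were named, up to the 4 largest changes per direction, with Fcer1g, Sigirr, Il1rapl2, Il33, Myd88, Irak1, Irak4 and flanking and marker genes added after their values were seen. The members and all lists (pathways, cell type markers and motifs) were chosen with earlier results of these data known. Alternatives were a replicate block, a slide block, normexp correction, quantile and median scaling, other filters and percentiles, moderated variances with a trend, fits of only the 2 groups compared, the deposited log2 values, and leaving out each array. The percentile over spots, and the list counts under all alternatives, were added after seeing the data. An item of the pathway lists is not reported here. The number of arrays limits the precision.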

Additional observations from a re-analysis of the deposited data

How the results depend on the processing

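The fit was repeated under 21 alternatives for 15 probes (the 13 tested ones, Gata2 and Spi1) in 3 comparisons. Of 942 values, 876 stayed on the same side of 0 and of the threshold, 31 gained the call, 22 lost it and 13 changed sign. The dim Il1rn probe has no value with the filter that asks for all 9 arrays. In Gata2 KD 5 genes were called with the replicate block and 5 or 6 otherwise, and 5 with each array left out. Between the KD groups 6 were called with the replicate block and 6 or 7 otherwise. In Pu.1 KD 1 gene, Il1r2, was called with the replicate block, with scaling to the median and with only the 2 groups compared, 1 or 2 with an array left out, and 2 or 3 otherwise. Same-numbered arrays did not deviate together as a rule (median r 0.07, from -0.55 to 0.65 over 9 pairs). So wide a range over few pairs cannot settle whether the numbers pair the samples. Arrays of the same slide deviated together more often (median r 0.48 over 9 pairs, against -0.32 over 18 pairs on different slides).

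The sign changes were all in values that were not called. For Il1rap the change in Gata2 KD was -0.018 with the percentile over spots, and ran from -0.18 to 0.22 with an array left out, being -0.10 and -0.11 without Gata2 KD replicates 2 and 3. Its change in Pu.1 KD was 0.033 after quantile normalization and ran from -0.47 to 0.080 (without Pu.1 KD replicate 2), and the difference between the KD groups from -0.076 to 0.47. With an array left out, the dim Il1rn probe ran from -0.017 (without EV replicate 2) to 2.43 in Gata2 KD and from -2.22 to 0.22 (without EV replicate 3) in Pu.1 KD, and the dim Il1rl1 probe from -0.26 to 0.18 (without EV replicate 3) in Pu.1 KD. The difference of Ms4a2 between the KD groups ran from -0.40 to 0.041 (without Pu.1 KD replicate 1). In Pu.1 KD, Il18rap was at 0.0017 in the deposited values and Il1r1 at 0.049 after quantile normalization. The cause was not tested. Leaving out EV replicate 2 moved the median of all probes in Gata2 KD from -0.09 to -0.19.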
